A study of Oryza sativa with 8 samples.

Results

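Chitinases cut chitin, the polymer of fungal cell walls, and are among the classic pathogenesis-related proteins of plants. Class I plant chitinases carry an N-terminal chitin-binding domain that class II enzymes lack. PBZ1 is a rice protein of the PR-10 family, named for its induction by the fungicide probenazole and widely used as a marker of defence. The set described here was every probe set annotated, by symbol or synonym, to 9 named chitinases (Cht1, Cht2, Cht3, Cht4, Cht6, Cht8, Cht9, Cht10 and Cht11) or to PBZ1. These 10 names fell on 10 loci, of which 9 had a probe set, 12 probe sets in all out of 57194 on the array.

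Signals came from 8 one-colour rice arrays hybridised with RNA of shoots and leaves of 4-leaf seedlings. Wild-type Zhonghua 11 (ZH11) and plants overexpressing OsTMF in the same cultivar (OE) were sampled before the treatment (normal) and after 24 h in a chamber at 4 °C with 14 h of light and 10 h of darkness (cold). Each of the 4 groups had 2 arrays. The OE arrays came from independent transgenic lines, OE-24 as replicate 1 and OE-29 as replicate 2 in each treatment, and the promoter of the construct is not given in the sources used here. The comparisons ask whether the level of OsTMF goes with a different transcript level of these defence genes, at rest and in the cold. The overexpressed gene matched 0 probe sets through the annotation used here, so its level was not analysed.

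Array medians lay between 27.2 and 28.2 signal units, and the number of arrays limits the precision. The 13 probe sets of the leaf marker list (light-harvesting proteins, Rubisco small subunit, Rubisco activase and protochlorophyllide reductase) reached a mean signal of 15040 in ZH11 normal, and 1 of them lay at or below the array median. Their summed signal was 73224 to 76256 in ZH11 normal and 71767 to 75256 in OE normal. It was 43448 to 46140 in ZH11 cold and 41500 to 41938 in OE cold. The summed leaf marker signal was thus lower in the cold in both genotypes. By the test described below, 4 of the 6 leaf marker genes were called lower with cold, 1 higher and 1 neither, in each genotype. Of all tested genes, 45.2% were called lower and 25.8% higher in ZH11, and 41.7% and 25.6% in OE. The 4 root marker probe sets summed to 206 to 222 in ZH11 normal, 221 to 229 in ZH11 cold, 232 to 315 in OE normal and 301 to 317 in OE cold, with 2 or 3 of the 4 at or below the array median. In each group the brightest root probe set made up most of the sum, with means from 156.4 in ZH11 normal to 272.9 in OE cold. The median of the 4 means was 25.7 in ZH11 normal, 17.1 in ZH11 cold, 33.4 in OE normal and 13.8 in OE cold. The 15 seed storage probe sets had 10 or 11 at or below the array median, and the 11 flower probe sets 6 to 8. The part of these marker levels in the results below was not tested. In whole tissue, fewer cells of a type and less RNA per cell cannot be told apart.

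Several of the names are shared between loci, which decides what was measured. The synonym Cht2 belongs to LOC4338718, which had 0 probe sets here, and to LOC4349267, which also carries the name Cht8. All values for Cht2 therefore come from LOC4349267, called Cht2/Cht8 below. Cht1 likewise belongs to LOC4342115, called Cht1 below, and to LOC4338719, which also carries the name Cht9 and is called Cht1/Cht9. The gene table lists OsChia1-type synonyms for Cht1 and Cht3 and OsChia2-type synonyms for Cht2/Cht8 and Cht4. In the reference assembly ASM3414082v1, Cht3 (LOC4342114) and Cht1 are neighbours on chromosome 6, with 0 protein-coding genes between them.

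A probe set was tested when its mean signal over the 8 arrays exceeded the 40th percentile of all probe sets, a signal of 17.65. This kept 10 of the 12 probe sets and 8 of the 9 genes. The probe set of Cht1/Cht9 read 5.3 to 6.7 on every array and was not tested. The Os.22058.1.S1_at probe set of Cht2/Cht8 read 6.0 to 8.7 and was not tested either. Changes are differences of log2(signal + 16), so those of dim genes are understated. Each is given ± the standard error from limma, and a call is an adjusted p under 0.05 over all 34313 tested probe sets.

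In seedlings that had not been chilled, 3 chitinases were higher in the overexpressing lines. Cht2/Cht8, Cht11 and Cht6 passed the test, 3 of the 8 genes tested, where 0.959% of all tested genes were called higher. The other 5 genes did not pass, and 0 were called lower, against 0.549% of all genes. The median difference over the 8 genes was 0.91 on the log2 scale, against 0.01 over all genes. These members were proposed with results of this comparison already known, so the counts are a description.

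Cht2/Cht8 had the largest difference of the 3. Its signal was 132.5 and 171.9 in ZH11 normal and 461.7 and 503.6 in OE normal. The groups did not overlap, and each line lay well above both wild-type arrays. The difference was 1.58 ± 0.14 (limma, adjusted p = 0.000361), a fold of 2.98 on the offset scale. Line OE-24 stood 1.52 and line OE-29 1.64 log2 units above the ZH11 mean.

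Cht11 had the smallest p of the 3. It read 1808.4 and 1812.7 in ZH11 normal and 3435.4 and 3800.5 in OE normal. The wild-type arrays were nearly identical and both lines stood clear of them. The difference was 0.99 ± 0.07 (limma, adjusted p = 7.67e-05), position 14 of 34313 probe sets ordered by p. Cht6 read 112.2 and 126.0 in ZH11 normal against 221.2 and 259.3 in OE normal. Its groups did not overlap, and the difference was 0.92 ± 0.13 (limma, adjusted p = 0.00776). Its adjusted p in limma was 0.079 when ZH11 normal replicate 1 was left out and 0.0672 when OE normal replicate 2 was.

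Among the chitinases that did not pass, Cht3 and Cht1 also had non-overlapping groups. Cht3 read 58.6 and 56.5 in ZH11 normal and 108.9 and 132.6 in OE normal (0.89 ± 0.19, limma, adjusted p = 0.065). Cht1 read 214.1 and 232.9 against 322.9 and 385.9 (0.62 ± 0.16, limma, adjusted p = 0.138). In both genes line OE-29 had the higher signal of the 2 lines. When the line was added as a block within OE, the adjusted p in limma was 0.0061 for Cht3 and 0.0172 for Cht1. That made 5 of 8 genes called higher, where in the same fit 1.33% of all tested genes were. This fit takes the difference between the lines out of the spread. Its p-values therefore do not measure how far the genotype difference varies between lines. Both genes were called as well without either OE cold array. Those arrays lie outside this comparison and enter it only through the spread shared by all groups. The differences therefore stayed at 0.89 for Cht3 and 0.62 for Cht1. Neither gene was called when any single ZH11 normal or OE normal array was left out. In a fit on these 2 groups only, Cht3 was called (limma, adjusted p = 0.0293) and Cht1 was not (adjusted p = 0.084).

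PBZ1, the PR-10 protein, read 7389.3 and 7643.2 in ZH11 normal and 9147.7 and 8927.8 in OE normal. The groups did not overlap, but the difference of 0.27 ± 0.06 did not pass (limma, adjusted p = 0.105). Cht4, a dim gene, read 32.5 and 9.1 in ZH11 normal and 87.9 and 32.5 in OE normal. The highest wild-type array equalled the lowest OE array, and the difference of 1.02 ± 0.34 did not pass (limma, adjusted p = 0.282). Cht10 read 271.2 and 223.9 against 232.0 and 277.8, with overlapping groups and a difference of 0.04 (95% interval -0.26 to 0.34). In all, OE lay above ZH11 without overlap for 6 of 8 genes, where the same held for 18.5% of all tested genes.

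**Figure D1:**
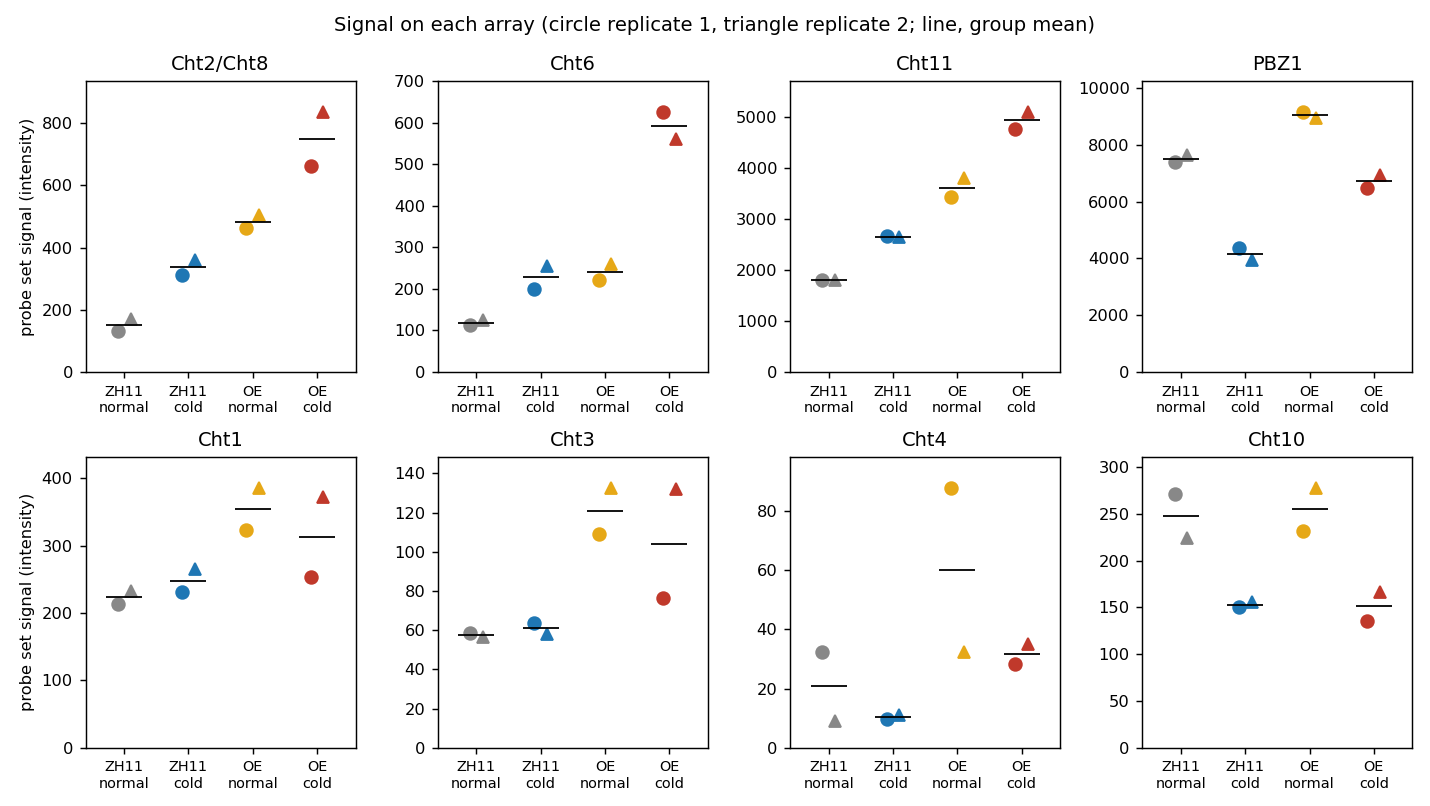
Signal (intensity, linear axes from 0) of the 8 tested genes on each of the 8 arrays, with a circle for replicate 1, a triangle for replicate 2 and a line for each group mean. In OE normal the points of Cht2/Cht8 (461.7 and 503.6) and Cht11 (3435.4 and 3800.5) lie above both ZH11 groups, while Cht10 separates by treatment and not by genotype.

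After 24 h of chilling the same 3 chitinases and PBZ1 were higher in OE than in ZH11. These were 4 of 8 genes, where 11.4% of all tested genes were called higher. Of the 8, 0 were called lower, against 6.51% of all genes. The median difference over the 8 genes was 0.77, against 0.06 over all genes. The groups compared here share no arrays with those before cold, but the 2 lines are the same. The fit also pools the spread over all 4 groups, so the tests before and after cold are not independent. The members were chosen with results of these data known, so these counts too are a description.

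Cht6 had the largest difference after cold. It read 200.6 and 255.8 in ZH11 cold and 625.6 and 561.1 in OE cold. The lowest OE array was above the highest ZH11 array, and the difference was 1.33 ± 0.13 (limma, adjusted p = 0.000274). Cht2/Cht8 read 312.4 and 360.7 against 660.6 and 834.6, with no overlap and a difference of 1.11 ± 0.14 (limma, adjusted p = 0.00111). Cht11 read 2663.0 and 2638.3 against 4771.3 and 5094.6. Its groups did not overlap either, and the difference was 0.89 ± 0.07 (limma, adjusted p = 5.65e-05).

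PBZ1 read 4359.1 and 3954.5 in ZH11 cold and 6491.2 and 6939.0 in OE cold. Both lines stood above both wild-type arrays by 0.64 (OE-24) and 0.74 (OE-29) log2 units over the ZH11 mean. The difference was 0.69 ± 0.06 (limma, adjusted p = 0.000186). All 4 of these genes kept the call in each of the 17 alternative settings tried.

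Cht3 and Cht1 did not pass after cold, and line OE-29 was the brighter line in both. Cht3 read 76.2 in line OE-24 and 131.9 in OE-29, against 63.8 and 58.0 in ZH11 cold. The groups did not overlap, and the difference was 0.60 ± 0.19 (limma, adjusted p = 0.0649, or 0.0127 with the line as a block and 0.0469 with the mean of both Cht3 probe sets). The difference was 0.94 without OE cold replicate 1 (line OE-24) and 0.26 without OE cold replicate 2 (line OE-29). Cht1 read 252.9 in OE-24 and 372.8 in OE-29, against 230.8 and 265.6 in ZH11 cold. OE-24 lay within the wild-type range and OE-29 above it, and the difference was 0.29 ± 0.16 (limma, adjusted p = 0.258). With 1 array per line and treatment, the difference between lines has no replicate check.

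Cht4 read 9.7 and 11.2 in ZH11 cold and 28.4 and 35.0 in OE cold. These signals lie near or below the array medians, the groups did not overlap, and the difference was 0.85 ± 0.34 (limma, adjusted p = 0.124). Fitted on these 2 groups only it was called (limma, adjusted p = 0.00303), and so it was without OE normal replicate 1 (adjusted p = 0.0491). Cht10 read 150.2 and 155.5 against 135.5 and 167.0, overlapping, with a difference of -0.02 (95% interval -0.32 to 0.28). OE lay above ZH11 without overlap for 6 of the 8 genes after cold, where the same held for 42.9% of all tested genes.

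**Figure D2:**
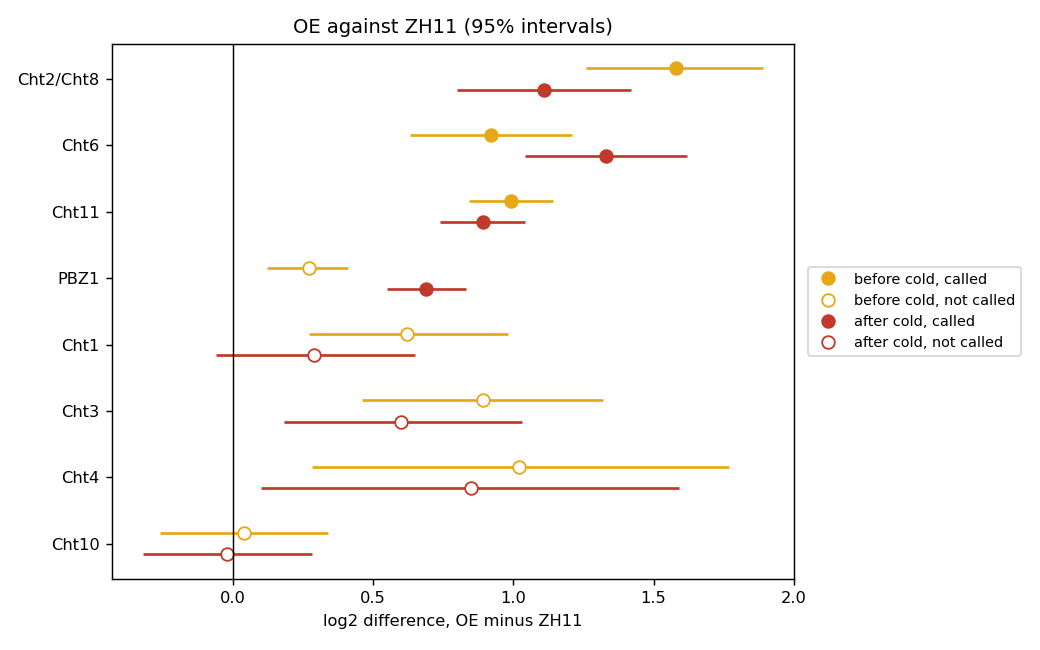
Log2 difference between OE and ZH11 (x axis) for each tested gene before and after cold, with 95% intervals from limma. Filled points passed the adjusted p threshold. Cht2/Cht8, Cht6 and Cht11 are filled at both times, PBZ1 only after cold (0.69), and the intervals of Cht10 span 0 at both.

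Between normal and cold arrays, 3 chitinases rose, and 1 chitinase and PBZ1 fell. In ZH11, Cht2/Cht8, Cht6 and Cht11 rose and PBZ1 and Cht10 fell, so 5 of 8 genes were called, where 71% of all tested genes were. In the higher direction it was 3 of 8 against 25.8% of all genes, and in the lower direction 2 of 8 against 45.2%. The share of members called was thus close to that of genes in general. Since normal seedlings were sampled first, the comparison also spans the day that passed and the transfer itself. It shares its ZH11 normal arrays with the comparison of genotypes before cold.

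In wild type the rise was 1.07 ± 0.14 for Cht2/Cht8 (limma, adjusted p = 6.71e-05), 0.85 ± 0.13 for Cht6 (adjusted p = 0.000223) and 0.55 ± 0.07 for Cht11 (adjusted p = 4.04e-05). The signals given above show no overlap between ZH11 normal and ZH11 cold for any of the 3. PBZ1 fell by 0.85 ± 0.06 (limma, adjusted p = 9.88e-07), from a mean of 7516 to 4157. Cht10 fell by 0.64 ± 0.13 (limma, adjusted p = 0.00196), from 247.6 to 152.8. Both had every cold array below every normal one. Cht1 (0.14 ± 0.16), Cht3 (0.06 ± 0.19) and Cht4 (-0.40 ± 0.34) did not pass, with limma adjusted p-values of 0.475, 0.791 and 0.323. The median change over all genes was -0.18.

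In OE the same 5 genes were called in the same directions. Cht6 rose by 1.25 ± 0.13 (limma, adjusted p = 1.38e-05), Cht2/Cht8 by 0.61 ± 0.14 (adjusted p = 0.00374) and Cht11 by 0.45 ± 0.07 (adjusted p = 2e-04). PBZ1 fell by 0.43 ± 0.06 (adjusted p = 0.000194) and Cht10 by 0.70 ± 0.13 (adjusted p = 0.00118). The share called over all genes was 67.3%, with 25.6% higher and 41.7% lower. Cht1 (-0.19 ± 0.16), Cht3 (-0.22 ± 0.19) and Cht4 (-0.58 ± 0.34) did not pass, with limma adjusted p-values of 0.349, 0.357 and 0.174. Each of these 3 was called lower without 1 array. They were Cht4 without OE normal replicate 2 (-1.13, limma, adjusted p = 0.0143), and, without OE cold replicate 2, Cht3 (-0.56, adjusted p = 0.0126) and Cht1 (-0.46, adjusted p = 0.025).

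**Figure D3:**
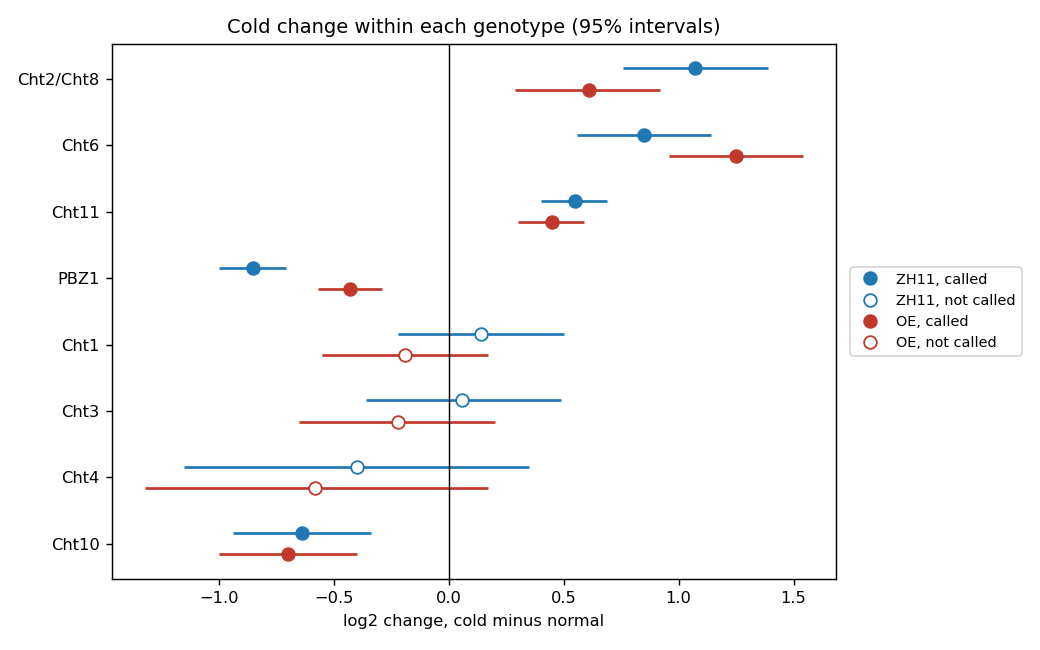
Log2 change from normal to cold (x axis) within ZH11 and within OE for each tested gene, with 95% intervals from limma and filled points for calls. Cht2/Cht8, Cht6 and Cht11 lie to the right of 0 and PBZ1 and Cht10 to the left in both genotypes. PBZ1 stands at -0.85 in ZH11 and -0.43 in OE.

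Whether chilling acted differently in the 2 genotypes was tested as an interaction, in which a positive value means a more positive cold change in OE. By limma 0 of 8 genes passed, where 1.53% of all tested genes did. At an unadjusted p under 0.05, limma gave 2 genes, Cht2/Cht8 and PBZ1. PBZ1 was nearest to the threshold, with 0.43 ± 0.09 (limma, adjusted p = 0.0595). Its adjusted p in limma was 0.048 after quantile normalization and 0.0421 after median centring. In a fit on the mean of each gene's probe sets it was 0.0479, with the same 0.43 ± 0.09. Its place against the threshold thus depends on the settings, and not on the scaling alone. Cht2/Cht8 had -0.47 ± 0.20 (limma, adjusted p = 0.328), but its second tested probe set gave -0.19 ± 0.20 (adjusted p = 0.72). Cht6 had 0.41 ± 0.18 (limma, adjusted p = 0.364). For Cht11 the 95% interval of the interaction was -0.31 to 0.11.

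Set in order, the 4 groups gave one sequence for Cht2/Cht8 and Cht11 and others for the rest. For Cht2/Cht8 and Cht11 the order was, from low to high, wild type before cold, wild type after cold, OE before cold and OE after cold, with no overlap between neighbours. Unchilled overexpressors thus read above chilled wild type. Cht6 had the same ends, but ZH11 cold (200.6 and 255.8) and OE normal (221.2 and 259.3) overlapped. PBZ1 ran from ZH11 cold through OE cold and ZH11 normal to OE normal, again with no overlap between neighbours. Over the set, OE normal lay above ZH11 cold without overlap for 7 of 8 genes, Cht6 being the exception. The same held for 53.3% of all tested genes, and this order was not tested.

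Genes with several probe sets allowed a check within a gene. For Cht2/Cht8 the Os.3415.1.S1_s_at probe set read 122.5 and 152.7 in ZH11 normal, 295.8 and 299.9 in ZH11 cold, 329.2 and 430.8 in OE normal, and 637.1 and 744.8 in OE cold. The 4 groups kept the order of the main probe set, Os.3415.1.S1_at, and did not overlap. The _s_at probe set gave 1.36 ± 0.14 between genotypes before cold (limma, adjusted p = 0.000961) and 1.17 ± 0.14 after cold (adjusted p = 0.000853). Its cold change was 1.04 in ZH11 and 0.84 in OE, against 1.07 and 0.61 for the main probe set. Both share one source transcript and so are not independent.

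The gene's remaining probe set, Os.22058.1.S1_at, stayed between 6.0 and 8.7 on the 8 arrays and did not follow the other two. It is derived from a different transcript record of the same locus. For Cht3 the second probe set, Os.2692.1.S1_x_at, read 48.8 and 59.5 in ZH11 normal, 51.5 and 48.3 in ZH11 cold, 68.3 and 98.6 in OE normal, and 67.6 and 92.5 in OE cold. OE was above ZH11 without overlap at both times, by 0.49 ± 0.17 before cold (limma, adjusted p = 0.326) and 0.53 ± 0.17 after it (adjusted p = 0.0673). Both Cht3 probe sets carry the suffix _x_at, by which the array maker marks possible cross-hybridisation with other sequences, so signal from related chitinases cannot be told apart there.

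**Figure D4:**
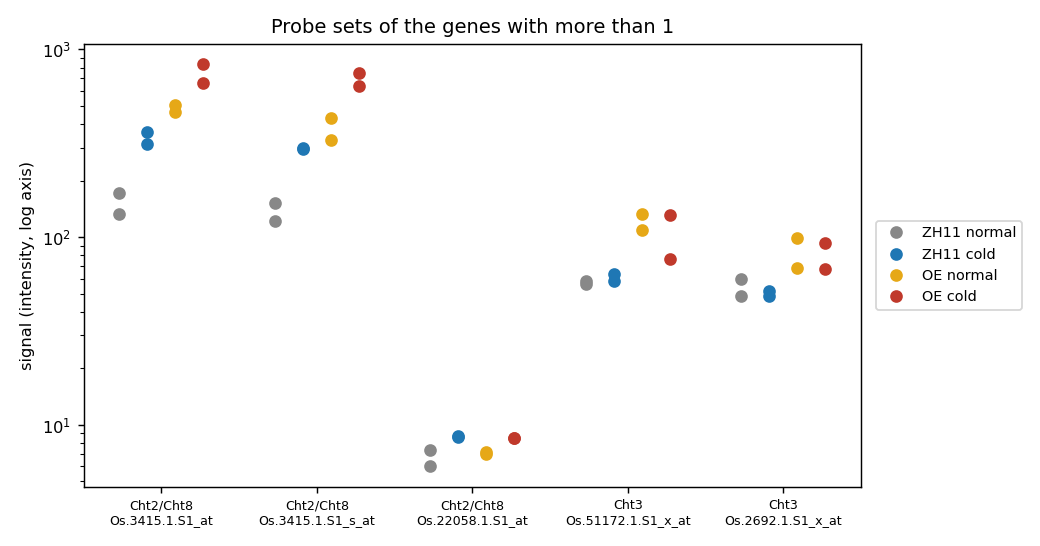
Signal (log axis) of the 3 probe sets of Cht2/Cht8 and the 2 of Cht3, with a point for each array coloured by group. The 2 brighter Cht2/Cht8 probe sets climb through the 4 groups together, the dim one stays between 6.0 and 8.7, and both Cht3 probe sets have their OE points above their ZH11 points.

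The members' profiles over the 8 arrays were compared by the root mean square difference of their log2 signals, each centred on its own mean. Neighbouring genes Cht1 and Cht3 were closest, at 0.17, and Cht6 and Cht10 furthest apart, at 1.04. Neither Cht1 nor Cht3 had a called change in the main fit. The Cht3 profile came from an _x_at probe set, in which signal from related chitinases cannot be told apart. Cht2/Cht8 stood 0.30 from both Cht6 and Cht11. Other named genes were compared only if their mean signal exceeded the median of tested probe sets and they were called in at least 1 comparison. By the same measure, the nearest of these 1434 genes to Cht2/Cht8 was AGO18, an Argonaute gene, at 0.43, followed by BC1L9 (0.45) and ASB1 (0.475). BC1L9 and AGO18 were also nearest to Cht6 (0.324 and 0.339), followed by OsPP2C35 (0.358). Those nearest to Cht11 were OC-VIII (0.22), ASA2 (0.256) and AGO18 (0.267). Cht3 had CIN1 (0.232), APX7 (0.254) and OC-VIII (0.262).

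PBZ1 had closer companions, namely M-PTH (0.097), BIMK2 (0.104) and IMP (0.122). M-PTH changed by -0.87 with cold in ZH11 and -0.42 in OE, near the -0.85 and -0.43 of PBZ1. The log2 values were centred but not scaled, so the distance also grows with how widely a gene varies. How close the companions lie is therefore not comparable between members. These distances describe 8 arrays and carry no test.

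Rice cells sense chitin fragments through the receptor protein CEBIP and the receptor kinase CERK1, which signal through MAP kinases to defence genes. Of 29 tested genes carrying names from a list for chitin perception and immune signalling, 1 was higher in OE before cold and 28 did not pass, where 0.959% of all tested genes were called higher. That gene was EIL1 (LOC4332697), a transcription factor of ethylene signalling, at 1.33 ± 0.11 (limma, adjusted p = 0.000245). After cold 6 were higher, 2 lower and 21 did not pass, where 11.4% of all tested genes were called higher and 6.51% lower. WRKY71 was 0.63 higher (limma, adjusted p = 0.00961), and WRKY76 1.24 ± 0.19 lower in OE, a log2 difference of -1.24 (adjusted p = 0.00309). The receptors were picked for mention after their values were seen. CERK1 (LOC4346173) was higher by 0.35 (limma, adjusted p = 0.0211), while CEBIP differed by -0.60 (adjusted p = 0.00464), opposite to Cht11, from which 3 protein-coding genes separate it on chromosome 3. A second locus listed as CERK1 (LOC9270778) differed by 0.07 and LYP4 by -0.04, and neither passed (limma, adjusted p = 0.682 and 0.907).

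The list's median difference was 0.04 before cold and -0.03 after it, against 0.01 and 0.06 over all genes. With cold, 13 of the 29 rose and 9 fell in ZH11, where 25.8% of all tested genes rose and 45.2% fell. In OE 11 rose and 8 fell, where 25.6% of all genes rose and 41.7% fell. CEBIP rose most, by 4.07 ± 0.10 in ZH11 (limma, adjusted p = 6.76e-10) and by 3.56 ± 0.10 in OE (adjusted p = 1.65e-09). The respiratory burst oxidase gene RBOHB had -0.94 in ZH11 and -0.93 in OE. Synonyms put a few other genes on this list, such as an actin gene (LOC4333919) that shares the name RAC1 with a small GTPase.

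A list of other pathogenesis-related proteins and glucanases matched 6 genes, of which 5 were tested. Their synonyms fell mostly on other kinds of gene. PR2 fell on LOC4327315, also listed as NPR1, TLP1 on 2 tubby-like genes, and GLN2 on a glutamine synthetase gene. In OE against ZH11 before cold 0 of the 5 passed in limma, and 1 had an unadjusted p under 0.05. After cold the germin-like gene GER1 differed by -0.80 ± 0.21 (limma, adjusted p = 0.036). With cold 3 of 5 rose and 0 fell in each genotype, where 25.8% of all genes rose and 45.2% fell in ZH11, and 25.6% and 41.7% in OE. These counts say nothing of thaumatin-like proteins, PR-1 proteins or glucanases, which were not analysed here.

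The calls of the 8 genes were recomputed under 17 alternative settings, 8 of which left out 1 array each. Of the 17 calls made over the 5 comparisons, 16 were kept in every one of them. The exception was Cht6 before cold, as given above. For Cht2/Cht8 the difference before cold ranged from 1.34 to 1.75 and its adjusted p in limma reached at most 0.00793. For Cht11 it ranged from 0.92 to 1.06, with an adjusted p of at most 0.00123.

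**Figure D5:**
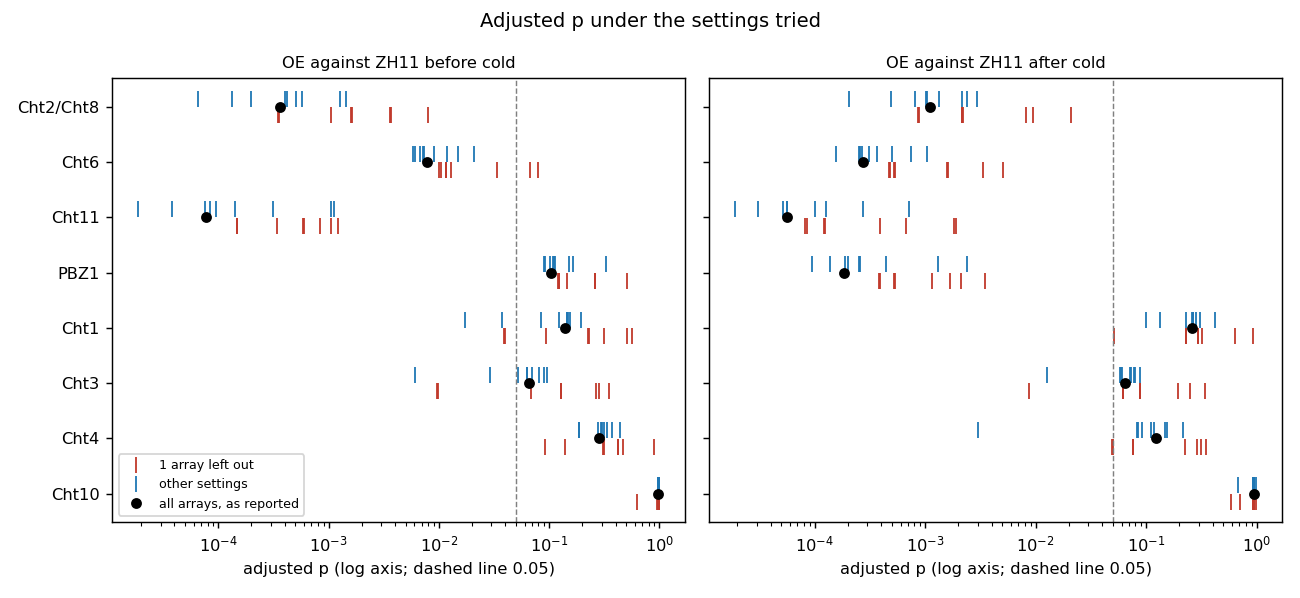
Adjusted p (log axis, limma) of each tested gene for OE against ZH11 before and after cold, as reported (black point), with 1 array left out (lower ticks) and under the other settings (upper ticks). The ticks of Cht2/Cht8 and Cht11 stay left of the dashed 0.05 line at both times, while those of Cht6 before cold reach 0.079 and those of Cht3 and Cht1 before cold lie on both sides.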

How the data were processed

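The authors deposited 1 linear intensity per probe set and array. The labels give biotin-labelled cRNA prepared by the Affymetrix protocol. How probes were summarised and arrays scaled is not given in the sources used here. All 8 arrays were used. Of 57194 probe sets, 22436 were annotated to 1 gene, 95 to several and 34663 to none. Genes were named by that annotation and by synonyms in the gene table of the reference. The members and lists were chosen with earlier results of these data known.

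Log2(signal + 16) was fitted with limma 3.58.1 in R 4.3.3 (group means, eBayes with a trend, 4 residual degrees of freedom, 5 two-sided contrasts) over 34313 probe sets above the 40th percentile, with Benjamini-Hochberg adjustment. All 4 groups share the spread. The fit was tested on simulated data. The probe set with the highest mean signal stood for a gene in every count. Intervals of 95% used 10.2 degrees of freedom. Named genes were the members, the 3 nearest named genes to each of 5 members, and the largest changes in each list.

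The OE replicate numbers mark the same line before and after cold, per the labels, and the ZH11 numbers pair nothing. Across probe sets, the replicate difference (1 minus 2) in normal arrays correlated with that in cold arrays at 0.128 in OE and at -0.02 in ZH11. The line as a block within OE was therefore an alternative. The labels call the ZH11 replicates independent biological ones.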

Additional observations from a re-analysis of the deposited data

How the results depend on the processing

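The number of arrays, 2 per group, limits every value here, and no measure of signal over background was used. The settings tried were 2 other pseudocounts, no filter on low signals, quantile normalization, median centring, eBayes without a trend, a fit on the 2 groups only, 2 kinds of replicate block, the mean of a gene's probe sets, and leaving out each array. For OE against ZH11 before cold, 3 members were called, and 5 with a replicate block of line within OE, a fit in which 605 probe sets were called in place of 411. Leaving out 1 array moved the member count there in both directions. The share of all tested genes called higher did not move in step with that count. The count was lowest when ZH11 normal replicate 1 or OE normal replicate 2 was missing and highest without either OE cold array. In the interaction 0 members were called, and 1 after quantile normalization, after median centring and with the mean of a gene's probe sets, where it was PBZ1 (limma, adjusted p = 0.0479). PBZ1 has 1 probe set, so with that mean its own values were unchanged and only the features fitted beside it differed. For OE against ZH11 after cold, 4 were called, and 5 with that mean, with the block of line within OE and in a fit on the 2 groups only. Of all tested genes, 11.4% were called higher in the main fit, 12.6% with that block and 13.7% in the fit on 2 groups. Leaving out 1 array changed no member count for the interaction or for cold in ZH11. It raised the count in some fits for OE against ZH11 after cold and for cold in OE. In those fits the share of all genes called also differed from the main fit, so the counts are not compared. With a replicate block over all arrays, Cht1 before cold was called (limma, adjusted p = 0.0371). The blocks changed no other call than those named for Cht1 and Cht3.

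Among the alternatives, changes of sign occurred only in values that had not passed the test, 14 in all. Leaving out 1 array, the cold change of Cht4 in ZH11 ran from -0.88 to 0.08, and those in OE from -0.56 to 0.12 for Cht3 and from -0.46 to 0.08 for Cht1. The OE difference of Cht10 ran from -0.09 to 0.17 before cold and from -0.16 to 0.12 after it, where median centring gave 0 to 2 decimals. In the interaction the ranges were -0.20 to 0.08 for Cht10, -0.73 to 0.37 for Cht4 and -0.63 to 0.06 for Cht3. The cause was not tested.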

Other observations

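The annotation names 2 more chitinases with probe sets, outside the set above and chosen after their values were seen. Cht5 (LOC4336265), which neighbours Cht4 on chromosome 4 with 0 protein-coding genes between, read 62.8 and 23.8 in ZH11 normal, 27.6 and 27.2 in ZH11 cold, 105.1 and 59.8 in OE normal, and 50.9 and 65.5 in OE cold. Replicate 1 was the brighter array in both normal groups, as it was for Cht4. OE differed from ZH11 by 0.77 ± 0.29 before cold (limma, adjusted p = 0.378) and by 0.77 ± 0.29 after it (adjusted p = 0.108), so neither passed. Cht7 (LOC4338720) read 7.2 to 10.8 on the 8 arrays and was not tested.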
